A study of Macaca mulatta with 449 samples.

Results

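The neurotrophin genes *BDNF* and *NTF3* and the receptor genes *NTRK2*, *NTRK3* and *NGFR* were followed through the rhesus macaque brain. Their rows were taken from the gene count table by symbol, which gave 5 of the 30807 genes in the table, with the identifiers ENSMMUG00000008634 (*BDNF*), ENSMMUG00000014646 (*NTF3*), ENSMMUG00000023117 (*NTRK2*), ENSMMUG00000001386 (*NTRK3*) and ENSMMUG00000014603 (*NGFR*). The table held 1 RNA-seq sample from each of 51 dissected sub-regions in each of 8 healthy, untreated animals from a single source. The young animals were Rhesus 4 (female, 3.2 years), Rhesus 7 (male, 4 years), Rhesus 8 (male, 3.8 years) and Rhesus 10 (female, 5 years), and the mid-aged ones were Rhesus 2 and 3 (male, 10 years), Rhesus 6 (female, 10 years) and Rhesus 11 (female, 9.8 years). No strain or genetic change is given in the labels. The 51 sub-regions fall into 16 region groups, of which the cerebral cortex has 31 sub-regions, the hippocampus (HIP) has 3 and the striatum (STR) has 3. The other groups are the cerebellum (CB), amygdala (AMY), entorhinal and perirhinal cortex (PA), olfactory bulb (OB), globus pallidus (GP), thalamus (THA), hypothalamus (HTHA), pituitary (PIT), substantia nigra (SN), ventral tegmental area (VTA), pons (PON), medulla oblongata (MO) and corpus callosum (CC).

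Neurotrophins are small secreted proteins that keep neurons alive and tune the growth of their processes and the strength of their synapses. *BDNF* encodes brain-derived neurotrophic factor, whose receptor is the tyrosine kinase TrkB (*NTRK2*), and *NTF3* encodes neurotrophin-3, whose main receptor is TrkC (*NTRK3*). *NGFR* encodes the low-affinity neurotrophin receptor, which binds every neurotrophin and also their uncleaved precursors, and which is known from basal forebrain cholinergic neurons. TrkB and TrkC are made both as full-length kinases and as truncated forms without the kinase, and counts per gene do not separate these forms.

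Levels are given as counts scaled to a common library size (CPM, with TMM factors over all samples), and the level of a region group is the mean of its sub-regions within each animal. CPM are not corrected for gene length, so levels of different genes were not compared with each other. Total counts per sample ran from 7784678 to 31083490 with a median of 10698602. *BDNF* and *NTRK3* had more than 3 counts in every sample, *NTRK2* had 3 or fewer in 4 samples, *NGFR* in 93 and *NTF3* in 169. Differences between regions were tested with edgeR with the animal as a block, and a gene was called at FDR < 0.05 with an absolute log2 fold change (log2FC) above 1. In bulk tissue a smaller number of cells of a type and less RNA per cell cannot be told apart.

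Several libraries stood apart in ways that touch these genes. The HTHA library of Rhesus 6 held the highest summed level of 7 neuronal genes among the HTHA libraries (7910 CPM, against 3242 to 5604 CPM in the others). The MO library of Rhesus 6 had only 266 CPM of these genes, against 3611 to 6921 CPM in the other MO libraries, with the oligodendrocyte list at its highest there (93758 CPM). Without Rhesus 6 the MO log2FC against the cortex were 1.85 for *NTF3*, -1.63 for *NTRK2* and 2.86 for *NGFR*, each still called. *PROX1*, a marker of dentate granule cells, had medians of 32.5 CPM in the dentate gyrus, 20.9 CPM in CA1 and 19.7 CPM in CA3, with 13.7 to 66.9 CPM in single dentate gyrus samples and 5.98 to 29.4 CPM in those of CA3. *PRL*, the pituitary hormone gene, reached 25799 to 347799 CPM in PIT. The cerebellar granule cell genes *GABRA6* (median 936 CPM) and *CBLN3* (median 650 CPM) marked the cerebellar cortex.

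*BDNF* was highest in the hippocampus and lowest in the striatum. In HIP its level ran from 75.8 through a median of 85.3 to 101 CPM over the 8 animals, and in the cortex from 27.6 through 35.5 to 41.2 CPM. In STR it ran from 1.15 through 1.48 to 5.55 CPM. Neither HIP nor STR overlapped the cortex in any animal. The difference from the cortex was a log2FC of 1.37 ± 0.26 (SE, n = 8 animals, FDR = 3.3e-06, edgeR) in HIP and -4.00 ± 0.30 (FDR = 3.7e-23) in STR, a 15.9-fold lower level there. Over all 16829 genes tested, 12.4% were called between HIP and cortex and 16.9% between STR and cortex.

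The other low regions for *BDNF* were GP, CC, VTA and PIT. GP had 2.04 to 5.44 CPM (log2FC -3.13 ± 0.30, FDR = 1.2e-17) and CC, a white matter tract, had 2.68 to 7.65 CPM (log2FC -2.93 ± 0.29, FDR = 1.2e-16). VTA (log2FC -1.38 ± 0.27, FDR = 3.1e-06) and PIT (log2FC -1.24 ± 0.26, FDR = 1.3e-05) were lower by less. PON was the second highest group, at 45.5 to 98.5 CPM with a median of 69.0 CPM, and lay above the cortex of the same animal in 8 of 8 animals (log2FC 1.03 ± 0.26, FDR = 0.00026). That call sits at the fold limit, and the log2FC fell to 0.95 with the lower detection filter and to between 0.98 and 1.00 when any of Rhesus 2, 4, 6, 8 or 11 was left out.

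In the remaining 8 groups *BDNF* was not called. OB (log2FC -0.94 ± 0.26, FDR = 0.00098) and SN (log2FC -0.65 ± 0.26, FDR = 0.021) passed the FDR but not the fold limit, and OB passed both without Rhesus 6 (log2FC -1.07). AMY and PA were higher than the cortex in 8 of 8 animals, by a log2FC of 0.49 ± 0.25 (FDR = 0.12) and 0.57 ± 0.25 (FDR = 0.071). MO was the most uneven group, with 83.6 CPM in Rhesus 3, 50.7 CPM in Rhesus 2, 12.9 to 25.4 CPM in 5 animals and 4.46 CPM in Rhesus 6, the library with few neuronal transcripts. Its log2FC against the cortex was -0.33 ± 0.26 (FDR = 0.26), and -0.73 (FDR = 0.0049) without Rhesus 3. Over the 8 fits that each left out 1 animal, the log2FC reached -0.18 at the other end. The FDR was at most 0.58 and no fit gave a call.

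*NTF3* had another distribution, with little in the cortex and far more in the cerebellum, hippocampus and thalamus. Cortical levels were 0.148 to 0.428 CPM, a few counts per library, and CB had 10.6 through 15.1 (median) to 25.4 CPM. HIP had 11.7 through 12.7 to 22.8 CPM and THA had 2.54 through 7.09 to 11.9 CPM. No animal's value in these 3 groups overlapped the cortex. Log2FC against the cortex were 5.64 ± 0.36 in CB (FDR = 1.3e-28), 5.58 ± 0.35 in HIP (FDR = 2.7e-27) and 4.56 ± 0.35 in THA (FDR = 9.5e-23). The share of all genes called was 25.7% in CB and 19.7% in THA.

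PA, the entorhinal and perirhinal cortex, was next at 1.73 to 8.81 CPM. Its log2FC was 3.73 ± 0.34 (FDR = 7.3e-17), where 8.92% of genes were called. *NTF3* was also called higher in PIT (2.39 ± 0.36), STR (2.37 ± 0.33), SN (1.80 ± 0.38), MO (1.69 ± 0.38), CC (1.64 ± 0.39), AMY (1.51 ± 0.40) and HTHA (1.44 ± 0.39). These groups had group means from 0.860 to 1.64 CPM, so the calls rest on low counts. In GP the gene had 0 to 2 counts in every library, which is under the floor of 3 counts used here, and it was called lower there (FDR = 0.027), a call that was lost without Rhesus 4 (FDR = 0.073) or Rhesus 10 (FDR = 0.066). OB, PON and VTA were not called, and PON was called higher without Rhesus 4, 7 or 10 (log2FC 1.03 to 1.12).

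**Figure D1:**
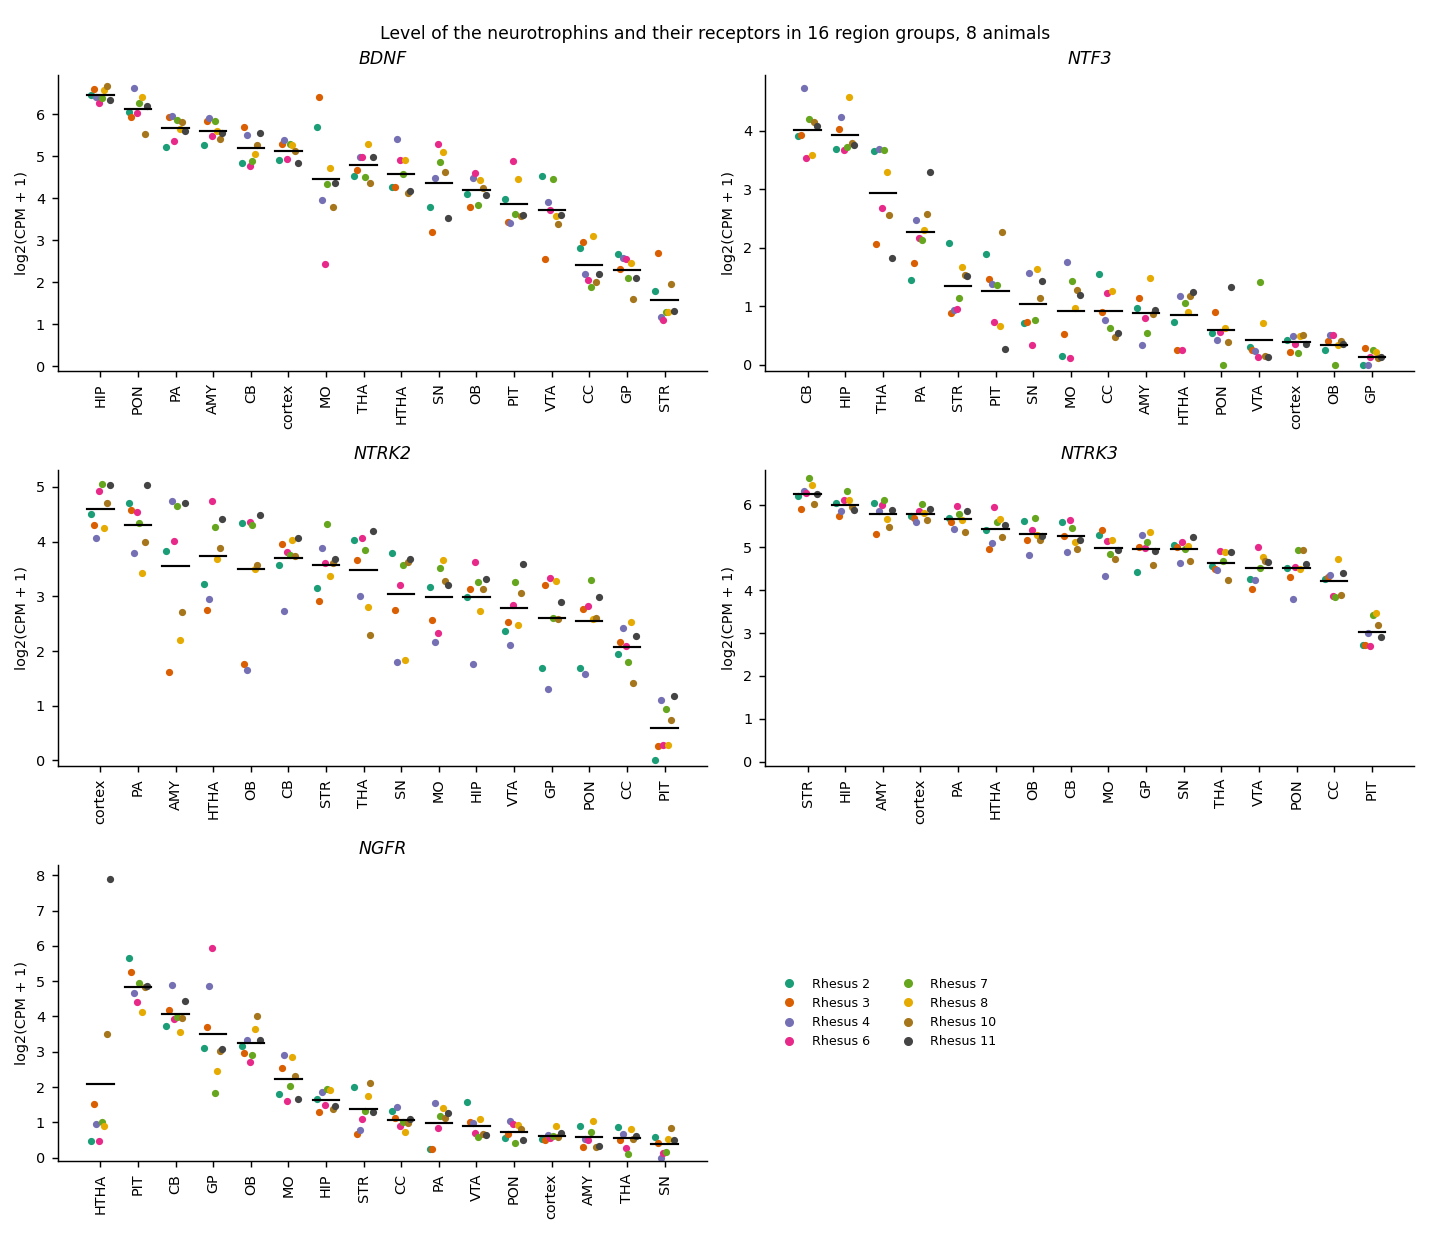
Level of the 5 genes on a log2(CPM + 1) scale in 16 region groups, ordered by mean CPM for each gene; each point is 1 animal and each black line is the mean of the 8 log2 values. *BDNF* falls from 87.6 CPM in HIP to 2.22 CPM in STR, *NTF3* from 15.7 CPM in CB to 0.106 CPM in GP, and the first place of HTHA for *NGFR* comes from 1 library at 238 CPM.

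*NTF4* (neurotrophin-4, a further TrkB ligand) was hardly seen. It was highest in PIT at 0 to 1.26 CPM (0 to 12 counts), had 3 or fewer counts in 402 samples and did not pass the filter for testing.

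Among the receptors, *NTRK2* was highest in the cortex and lowest in the pituitary. Cortical levels ran from 15.8 through 23.3 to 32.4 CPM, and PIT from 0 through 0.441 to 1.26 CPM. No PIT value came near a cortical one. The log2FC in PIT was -5.37 ± 0.42 (FDR = 7.8e-23, 44.7% of genes called), a 41.2-fold lower level. CC had 1.67 to 4.76 CPM (log2FC -2.81 ± 0.34, FDR = 7.8e-13, 44.2% of genes called).

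*NTRK2* was called lower than in the cortex in 10 of 15 groups and higher in none. The others were PON (-2.24), GP (-2.09), VTA (-2.01), HIP (-1.74), MO (-1.70), SN (-1.59), THA (-1.14) and STR (-1.05), all with lower values than the cortex in 8 of 8 animals. In HIP, where its ligand gene *BDNF* was highest, *NTRK2* ran from 2.39 through 7.76 to 11.4 CPM (log2FC -1.74 ± 0.30, FDR = 8.2e-07). The THA call was lost without Rhesus 10 (log2FC -0.97), and the STR call without Rhesus 3 (-0.98) or 11 (-0.99) and with DESeq2 size factors (-0.998). CB, HTHA, OB and AMY passed the FDR with log2FC between -0.97 and -0.75, and each was called in at least 1 alternative, while PA was not called (-0.29 ± 0.30, FDR = 0.48).

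Animals differed widely in *NTRK2* within a region. In AMY the values were 2.06 CPM in Rhesus 3, 3.6 CPM in Rhesus 8 and 5.59 CPM in Rhesus 10, and 13.2 to 25.6 CPM in the other 5. In OB, Rhesus 3 and 4 had 2.37 and 2.13 CPM and the other 6 had 10.3 to 21.3 CPM. Single cortical sub-regions ran from 1.51 to 42.6 CPM over all samples.

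This spread was compared with the main axis along which samples of the same sub-region differed across the transcriptome. That axis was the first principal component of log2(CPM + 1) centred on each sub-region, from 13878 genes without the members, and it held 32.8% of the spread. *NTRK2*, left out of its making, had a Pearson r of 0.93 (Spearman rho 0.90) with the score over all samples, 0.95 in the cortical samples and 0.88 in the 160 others, and 0.92 over all without the 2 samples farthest from the median score. Of the genes used, 97.7% had a smaller absolute r. *NTRK3* followed with r = 0.52 (rho 0.48), while r was -0.22 for *BDNF* (rho -0.28), -0.10 for *NTF3* (rho -0.06) and -0.05 for *NGFR* (rho -0.10). The samples come from 8 animals and are not independent, so no p is given.

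The genes at the high end of the axis were *TNKS*, *AFF4* and *MYO9A*, and those at the low end were *AUP1*, *MCM7* and *CUTA*. The score had r = 0.25 with the log2 total count. Rhesus 4 (mean score -1.23) and Rhesus 3 (mean -0.78) lay low and Rhesus 11 (mean 0.83) lay high, and the lowest sample of all was the cerebellar cortex of Rhesus 4 (-3.88). In AMY the scores of Rhesus 3, 8 and 10 were -2.12, -1.51 and -0.90, with 0.67 to 1.18 in the other 5. What sets this axis, and its part in differences between regions, was not tested: the score is centred on each sub-region and has no value between them.

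**Figure D2:**
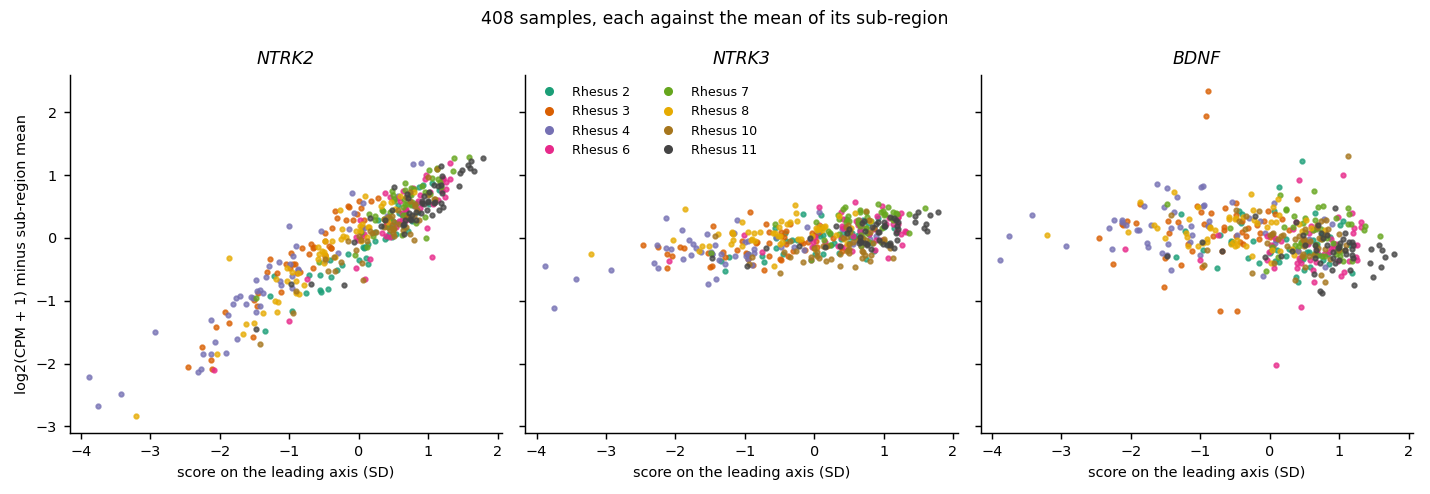
Departure of each sample from its sub-region mean, in log2(CPM + 1), against its score on the leading axis in SD, coloured by animal. *NTRK2* rises along the axis (r = 0.93), *NTRK3* rises less (r = 0.52) and *BDNF* does not (r = -0.22).

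*NTRK3* was the most even of the 5 genes. Its highest mean, 89.1 CPM in the caudate nucleus, was 12.3 times its lowest, 7.27 CPM in PIT, whereas the same ratio was 92.7 for *BDNF* and 52.7 for *NTRK2*. PIT ran from 5.51 through 6.73 to 10.1 CPM against 47.4 through 53.6 to 63.5 CPM in the cortex, with no overlap (log2FC -2.90 ± 0.13, FDR = 1.3e-39). CC (-1.60), VTA (-1.30), PON (-1.29) and THA (-1.18) were also called lower, the last with 17.7 to 29.3 CPM. STR was the highest group at 58.9 to 97.1 CPM and exceeded the cortex in 8 of 8 animals, by a log2FC of 0.47 ± 0.12 that passed the FDR (0.00051) but not the fold limit. HIP had 52.5 to 78.5 CPM and a log2FC of 0.22 ± 0.12 (FDR = 0.13).

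*NGFR* was low in the cortex and high in a few structures. Cortical levels were 0.403 to 0.873 CPM. PIT had 16.5 through 27.8 to 49.5 CPM, CB 10.9 through 14.6 to 28.6 CPM and OB 5.56 through 8.49 to 15.0 CPM. All 8 values of each of these groups lay far above the cortex, with log2FC of 5.78 ± 0.59 (FDR = 4.1e-16), 4.94 ± 0.57 (FDR = 2.3e-13) and 4.03 ± 0.55 (FDR = 3.2e-10), where the share of genes called in OB was 22.5%.

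GP and HTHA were also called, but there the animals disagreed. In GP *NGFR* was 61 CPM in Rhesus 6, 28.3 CPM in Rhesus 4 and 2.54 to 12 CPM in the other 6, all above the cortex (log2FC 4.88 ± 0.58, FDR = 5.9e-13, and 4.02 without Rhesus 6). In HTHA it was 238 CPM in Rhesus 11 (2978 counts), 10.4 CPM in Rhesus 10 and 0.376 to 1.89 CPM in the other 6 (4 to 20 counts). The HTHA log2FC of 5.05 ± 0.61 (FDR = 5.9e-12, 18.6% of genes called) fell to 1.85 ± 0.41 (FDR = 5.5e-05) without that 1 library.

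The same HTHA library carried the genes of basal forebrain cholinergic neurons. *CHAT*, the acetylcholine-synthesising enzyme, was 32.2 CPM there and 0 to 1.66 CPM in the other 7, *SLC18A3*, the vesicular acetylcholine transporter, was 36.3 against 0.393 to 4.09 CPM, and *LHX8*, a transcription factor of these neurons, was 35.5 against 0 to 3.90 CPM. The summed cholinergic list, 4 genes with *ISL1* as the fourth, came to 116 CPM in that library and to 6.71 to 21.2 CPM in the rest. In GP these markers did not peak in the same animal. *CHAT* was highest in Rhesus 6 (5.37 CPM), where *NGFR* was highest (61 CPM). *LHX8* was highest in Rhesus 4 (17.8 CPM), which came next for *NGFR* (28.3 CPM). The rest of the cholinergic list is not given for GP. In PIT and OB, where *NGFR* was high in every animal, *CHAT* was at 0 in each library, although *ISL1* was 6.09 to 10.5 CPM in PIT. The part of cholinergic neurons in the level of *NGFR* in HTHA and GP was not tested.

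*NGFR* was called higher in 3 further groups. MO had 2.06 through 3.52 to 6.50 CPM (log2FC 2.85 ± 0.55, FDR = 3.5e-06, 28.3% of genes called), HIP 1.44 to 2.84 CPM (1.98 ± 0.53, FDR = 0.0011) and STR 0.582 to 3.31 CPM (1.57 ± 0.53, FDR = 0.0092). The STR call was lost without Rhesus 10 (log2FC 1.35, FDR = 0.054). Within STR the mean was 4.20 CPM in the putamen, 0.735 CPM in the nucleus accumbens and 0.309 CPM in the caudate nucleus. The caudate nucleus thus lay below the cortical mean of 0.547 CPM. CC, with 0.653 to 1.69 CPM, was not called (1.02 ± 0.64, FDR = 0.13), except without Rhesus 11 (1.04, FDR = 0.039).

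Counted over the 15 comparisons with the cortex, 42 of 75 member tests were called: 12 of 15 for *NTF3*, 10 for *NTRK2*, 8 for *NGFR*, 7 for *BDNF* and 5 for *NTRK3*. Among all genes the share called ran from 8.92% in PA to 44.7% in PIT, with 9.54% in AMY, 24.9% in PON, 28% in SN and 34.8% in GP; over the 15 groups together 12.3% of tests were called higher and 12.2% lower. A call in PIT or CC was therefore common for any gene, and one in PA, where *NTF3* alone of the 5 genes passed, was not. For *BDNF* and the gene of its receptor, *NTRK2*, both were called lower in STR (log2FC -4.00 and -1.05), GP (-3.13 and -2.09), CC (-2.93 and -2.81), VTA (-1.38 and -2.01) and PIT (-1.24 and -5.37). In HIP (1.37 and -1.74) and PON (1.03 and -2.24) *BDNF* was called higher and *NTRK2* lower. *NTF3* and *NTRK3* were both called in THA (4.56 and -1.18), PIT (2.39 and -2.90) and CC (1.64 and -1.60), with *NTF3* higher and *NTRK3* lower in each. These comparisons share the cortical samples.

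**Figure D3:**
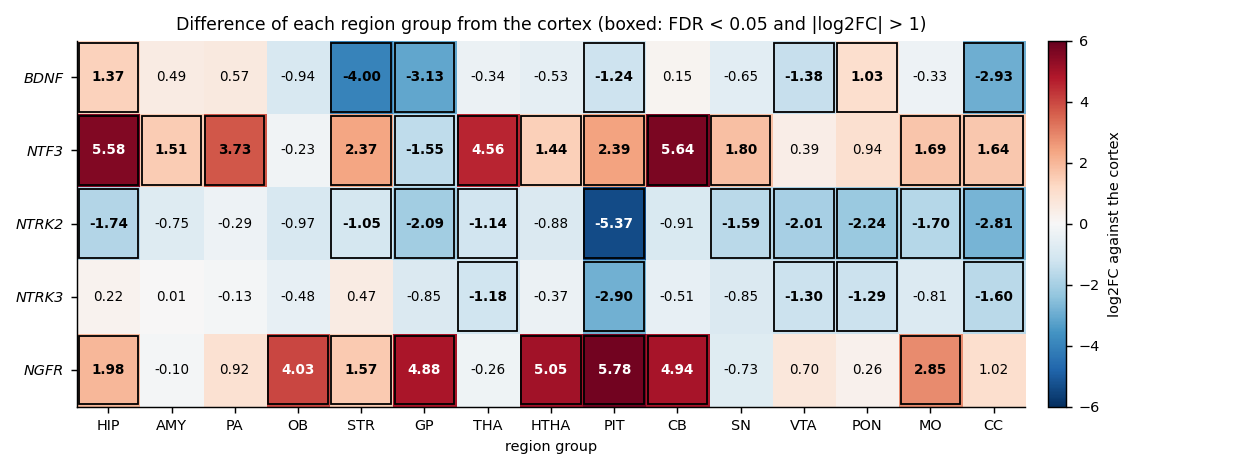
Log2FC of the 5 genes in each of 15 region groups against the cortex, with red for higher and blue for lower; boxes mark calls at FDR < 0.05 and an absolute log2FC above 1. *NTF3* and *NGFR* have mostly positive values and *NTRK2* has negative ones in all 15 groups, from -0.29 in PA to -5.37 in PIT.

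Within the hippocampus, *NTF3* was higher in the dentate gyrus (DG) than in the CA fields of the same animal. It was 19.5 through 25.6 to 36.7 CPM in DG, 3.32 through 9.34 to 22.6 CPM in CA3 and 3.79 through 4.90 to 12.7 CPM in CA1. DG exceeded both fields in 8 of 8 animals, although the ranges of DG and CA3 overlapped. The granule cell marker *PROX1* was also present in the CA samples, as given above, and its bearing on the hippocampal differences was not tested. The log2FC was 2.09 ± 0.26 against CA1 (FDR = 3.2e-05) and 1.38 ± 0.25 against CA3 (FDR = 0.00057), in comparisons where 3.53% and 3.02% of 14796 genes were called. CA3 and CA1 differed by 0.71 ± 0.27 (FDR = 0.49), with 0.0203% of genes called.

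*BDNF* had its highest level of all 51 sub-regions in DG, at 77.7 through 111 to 144 CPM, followed by CA3 (33.8 to 104 CPM) and CA1 (51.8 to 95.2 CPM). The differences of DG from CA1 (0.63 ± 0.17, FDR = 0.0083) and CA3 (0.59 ± 0.17, FDR = 0.012) passed the FDR but not the fold limit. DG was the higher in 7 of 8 animals in each comparison. *NTRK3* was also higher in DG than in CA1, by 0.39 ± 0.08 (FDR = 0.0014). The opposite sign was seen for *NGFR* (-0.86 ± 0.21 against CA1, FDR = 0.0050) and *NTRK2* (-0.59 ± 0.22, FDR = 0.047). None of these passed the fold limit.

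In the striatum the caudate nucleus (CN), putamen (PUT) and nucleus accumbens (ACb) were compared. *NGFR* was a putamen transcript: PUT had 0.393 through 3.13 to 9.15 CPM, CN 0.171 to 0.616 CPM (2 to 6 counts) and ACb 0.101 to 1.90 CPM. The values of Rhesus 4, 3, 6 and 11 in PUT, 0.393 to 2.24 CPM, lay within or near the range of ACb, and the other 4 lay well above. CN was lower than PUT by a log2FC of -3.64 ± 0.56 (FDR = 6.1e-05) and PUT was higher than ACb by 2.33 ± 0.50 (FDR = 0.00071, 7 of 8 animals), where 4.82% and 8.75% of 14827 genes were called. The *CHAT* level ran from 1.83 through a median of 7.67 to 15.4 CPM in PUT, from 0.877 through 3.63 to 6.26 CPM in CN and from 1.83 through 4.38 to 9.27 CPM in ACb, and its part in the level of *NGFR* was not tested.

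*NTRK2* and *NTF3* were instead highest in CN. *NTRK2* was 8.73 through 14.3 to 27.9 CPM in CN, 4.75 through 8.37 to 16.3 CPM in PUT and 1.61 through 7.62 to 15.7 CPM in ACb. The log2FC of CN was 1.07 ± 0.30 against PUT (FDR = 0.012) and 1.14 ± 0.31 against ACb (FDR = 0.0086, 6 of 8 animals), and both calls were lost when Rhesus 4 was left out (0.97 and 0.96), the second also without Rhesus 3 (0.96) or 11 (0.97). *NTF3* in CN was 1.11 to 4.11 CPM and exceeded ACb in 8 of 8 animals (1.21 ± 0.22, FDR = 0.00054, 3.96% of genes called) and PUT by 0.86 ± 0.22 (FDR = 0.0059). *BDNF* was low in all 3, with 0.431 to 1.95 CPM in CN, and 1 library, PUT of Rhesus 3, reached 14.7 CPM.

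In the cerebellum *NTF3* was the 1 member called between vermis (CBV) and cortex (CBC). CBV had 15.2 through 20.3 to 29.4 CPM and CBC 5.46 through 9.86 to 21.4 CPM, the last in Rhesus 4. The ranges overlapped because of that animal, and CBV exceeded CBC in 8 of 8 animals, by a log2FC of 1.07 ± 0.13 (FDR = 0.0030). Only 32 of 14250 genes (0.225%) were called between the 2 sub-regions. The call depended on pairing by animal: without the replicate block the log2FC was 0.99 (FDR = 0.13). *NTRK3* was higher in CBV by 0.45 ± 0.09 (FDR = 0.035), under the fold limit, and *NGFR* did not differ measurably (0.08 ± 0.12, FDR = 0.72).

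**Figure D4:**
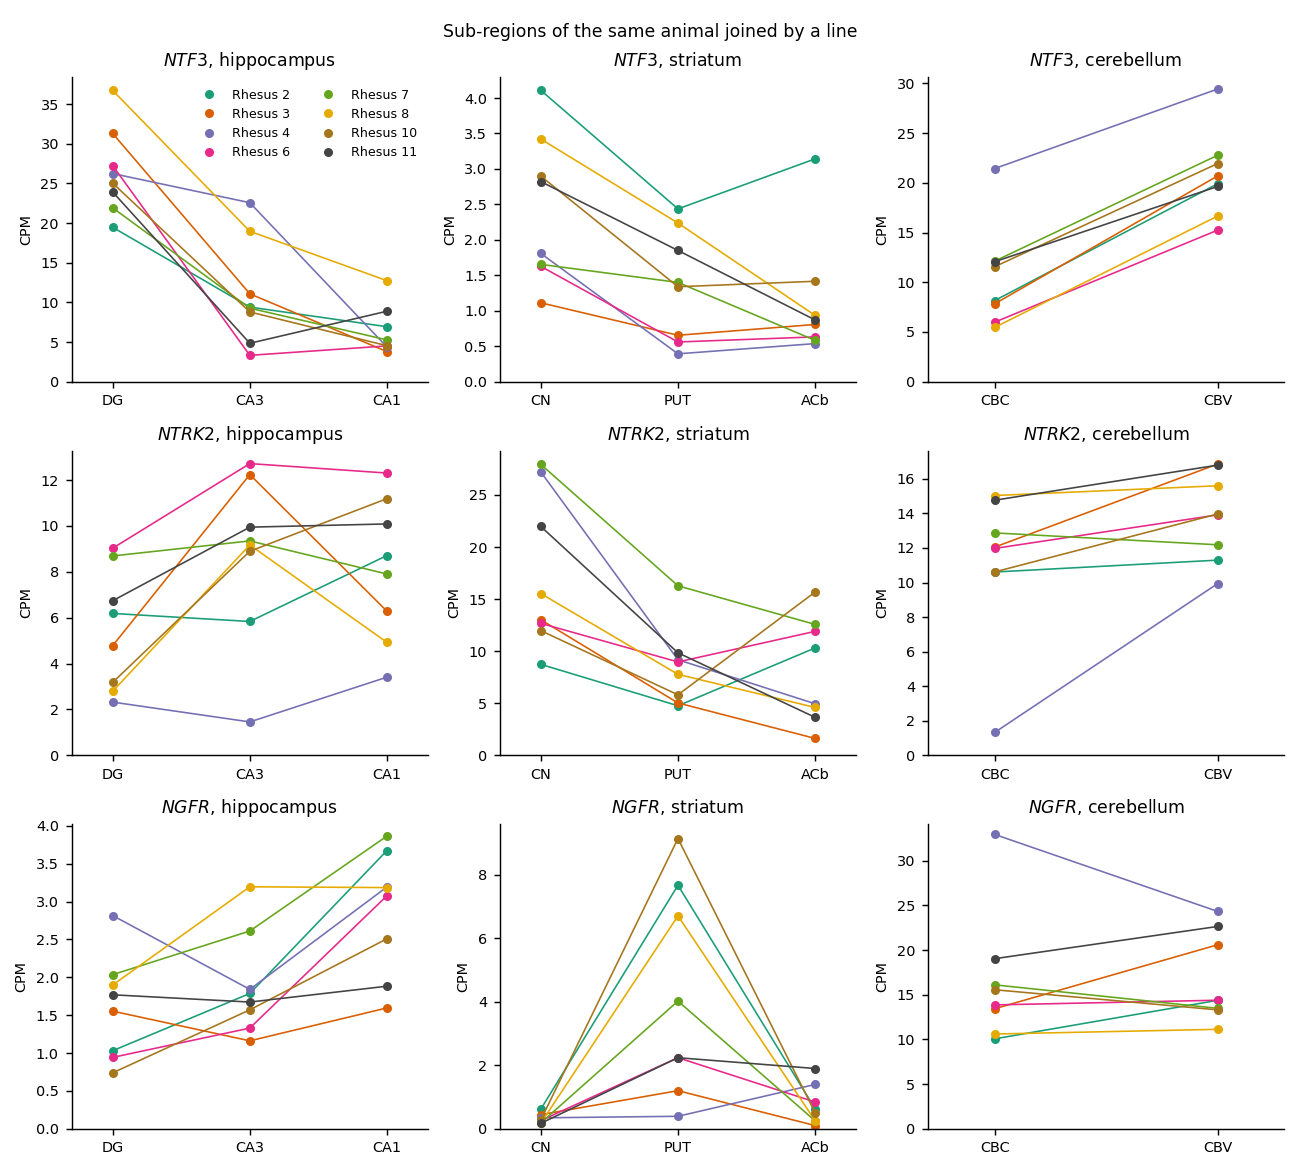
CPM of *NTF3*, *NTRK2* and *NGFR* in the sub-regions of the hippocampus, striatum and cerebellum, with the samples of each animal joined. *NTF3* is highest in DG and in CBV in 8 of 8 animals, *NGFR* is highest in PUT among the 3 striatal sub-regions by its mean, and the CBC sample of Rhesus 4 has the lowest *NTRK2* (1.32 CPM) and the highest *NGFR* (32.9 CPM) of the cerebellar samples.

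Across the 31 cortical sub-regions the 5 genes varied far less than between region groups. *BDNF* ran from a mean of 49.2 ± 12.1 CPM (SD, n = 8) in the anterior cingular gyrus (ACG) to 19.2 ± 4.62 CPM in the posterior superior occipital gyrus (pSOG), a ratio of 2.56. The 3 lowest sub-regions were those of the occipital lobe, followed by the superior precentral gyrus (24.9 CPM). In the lobes used here the cuneus gyrus (30.4 CPM) is placed in the parietal lobe and the lingual gyrus (30.8 CPM) in the limbic cortex. The sub-region held 55.8% of the variance of cortical *BDNF* and the animal 16.9%. For *NTRK2* the order was turned, with 14.9% for the sub-region and 27.1% for the animal. These shares are not adjusted for the numbers of sub-regions (31) and animals (8), and the larger number takes the larger share by noise alone.

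*BDNF*, *NTRK3* and *NGFR* differed between cortical sub-regions in the test over all of them (FDR = 2.2e-36, 6.2e-15 and 2.3e-10), where 75% of 15981 genes were called. *NTRK2* missed the threshold (FDR = 0.054) and passed it without Rhesus 7 (0.043) or 11 (0.042), and *NTF3* did not pass the filter. In the order of means over all 51 sub-regions, neighbours overlapped in 50 of 50 pairs for *BDNF*, *NTF3* and *NGFR* and in 49 of 50 for *NTRK2* and *NTRK3*, the exception being CC and PIT. These ranges are not paired by animal, and a step can still hold within animals, as for *NTRK3* in the caudate nucleus and putamen (log2FC 0.24, FDR = 0.035, higher in the caudate nucleus in 8 of 8 animals). In the test over all 51 sub-regions, 5 of 5 members were called, as were 99.5% of 17121 genes.

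Each lobe was also set against the mean of the other 4, with calls at FDR < 0.05 and no fold limit. *BDNF* was lower in the occipital lobe, at 18.2 through 21.8 to 23.5 CPM against 26.3 to 34.9 CPM in the parietal lobe, the next lowest, with no overlap (log2FC -0.77 ± 0.06, FDR = 1.0e-12, 56.3% of 17478 genes called). It was higher in the temporal lobe (0.38 ± 0.06, FDR = 4.2e-06, 25.7% called), limbic cortex (0.30 ± 0.06, FDR = 0.00019, 15.9% called) and frontal lobe (0.22 ± 0.06, FDR = 0.0018, 44% called). *NTF3* (-0.88 ± 0.19), *NGFR* (-0.88 ± 0.20) and *NTRK3* (-0.31 ± 0.06) were lower in the occipital lobe too. *NTRK2* was called in no lobe and had -0.01 ± 0.12 (FDR = 0.97) in the occipital one. Whether the occipital difference of *BDNF* departs from that of *NTRK2* was not tested. Without the animal as a block the calls of *BDNF* in the frontal lobe (0.22, FDR = 0.096) and limbic cortex (0.30, FDR = 0.073) were lost.

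*NGFR* was higher in the frontal lobe (0.72 ± 0.13, FDR = 2.8e-05) and limbic cortex (0.57 ± 0.15, FDR = 0.0065), and its highest cortical means were in the superior and inferior precentral gyri (1.35 ± 0.975 and 0.882 ± 0.448 CPM). *NTRK3* was higher in the frontal lobe (0.27 ± 0.05, FDR = 0.00014) and temporal lobe (0.17 ± 0.06, FDR = 0.021), with its top mean in the temporal polar gyrus (67.8 CPM). The calls of *NGFR* in the limbic cortex (0.56, FDR = 0.13) and *NTRK3* in the temporal lobe (0.17, FDR = 0.17) were lost without the block, the second also without Rhesus 2 or 8. The parietal lobe called none of the 5 genes, with 9.64% of genes called. The limbic call of *NTF3* (0.42 ± 0.14, FDR = 0.039) rests on 0.115 to 0.537 CPM and was lost in 7 alternatives, among them the fit without the block (0.42, FDR = 0.58).

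Over the cortical means, *BDNF* varied with several of the marker lists measured. Its Pearson r over 31 sub-regions ran from -0.78 with the summed oligodendrocyte genes (rho -0.84) to 0.85 with the dentate granule cell list (rho 0.83), and was 0.77 with the activity-regulated genes such as *FOS* and *EGR1* (rho 0.82). The lists for cerebellar granule cells (0.76) and choroid plexus (0.73), whose cell types the cortex lacks, were about as close. With *NTRK3* r was 0.72 and with *NTF3* 0.64. The sub-regions come from the same 8 brains and share libraries and depth, so these are descriptions without a p, and the part of any of these lists in the cortical order was not tested.

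**Figure D5:**
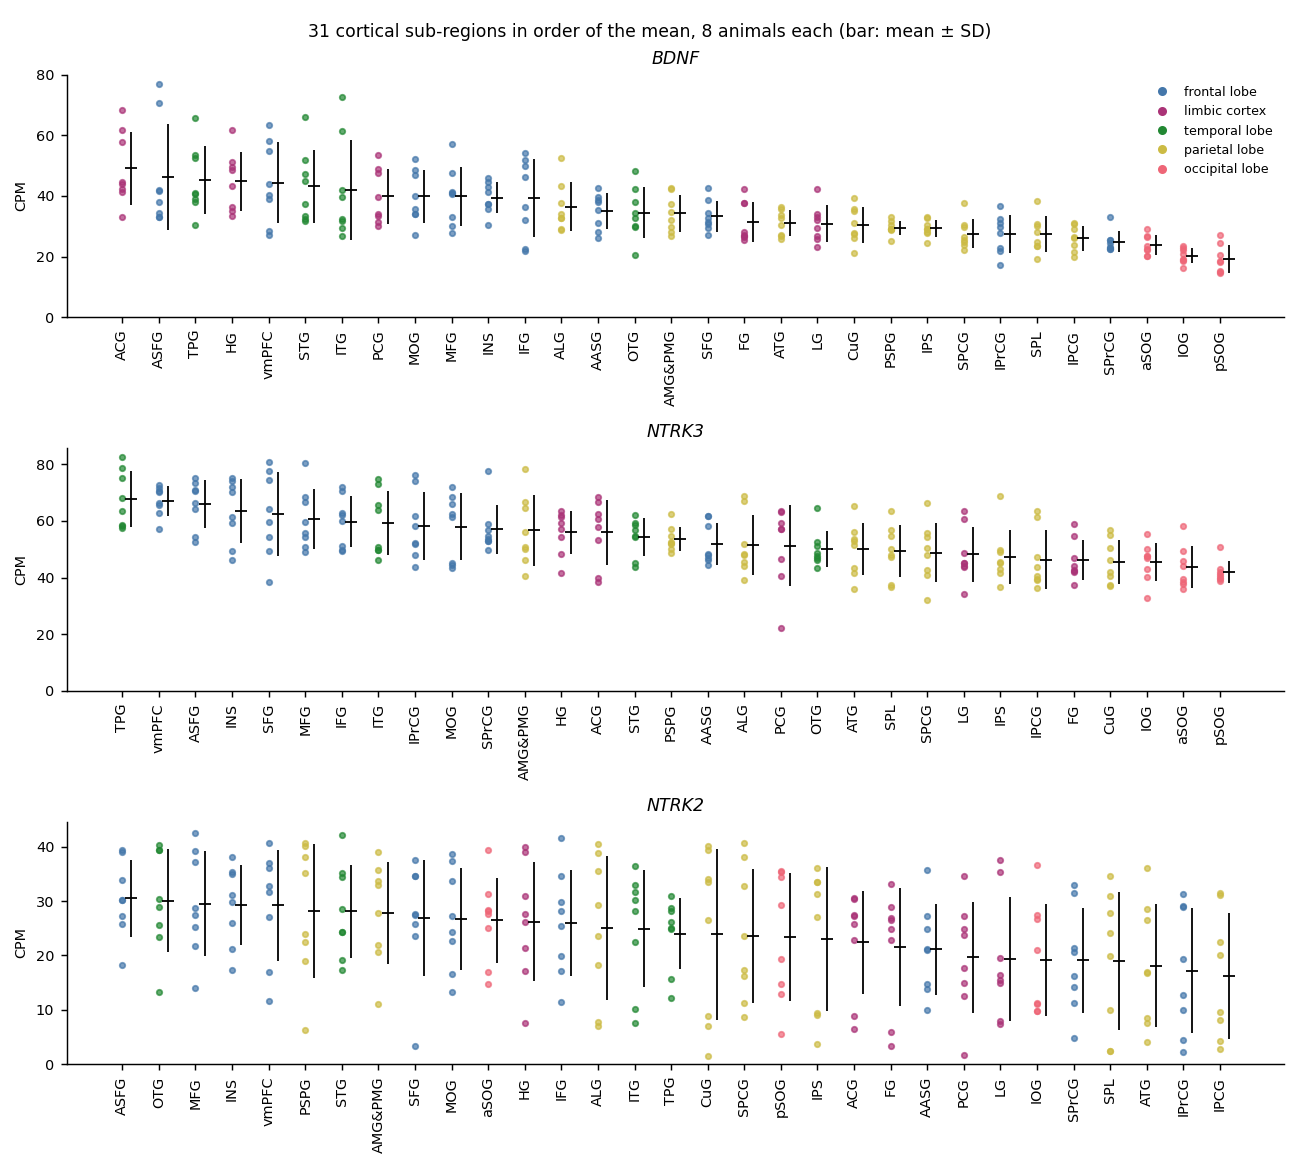
CPM of *BDNF*, *NTRK3* and *NTRK2* in 31 cortical sub-regions in order of the mean, coloured by lobe, with 8 animals each and bars for mean ± SD. The 3 occipital sub-regions close the order for *BDNF* (19.2 to 23.9 CPM) and stand at 41.9 to 45.4 CPM at the end for *NTRK3*, while for *NTRK2* they are mixed with the rest.

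Age stage and sex were tested within each region group, with the other as covariate and calls at FDR < 0.1 with an absolute log2FC above 1. *NGFR* and *NTF3* could be tested in 12 of 16 groups and the other 3 genes in all, which gave 72 tests for each factor. None was called by edgeR, beside 0.0166% of tests over all genes for age and 0.102% for sex. Unadjusted p (edgeR) lay under 0.05 in 7 of 72 tests for age and 6 for sex. Among all genes that share depended on the group. It ran from 1.48% in AMY to 12.9% in THA for age, and from 1.29% in SN to 21% in PIT for sex. DESeq2 called 1 member test for age and 0 for sex. In single groups the share of genes called for age was at most 0.201%, in PIT.

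The nearest to a call was *NTRK2*, which was higher in the mid-aged animals in PA (log2FC 0.84 ± 0.21, FDR = 0.23, edgeR) and THA (1.05 ± 0.33, FDR = 0.32). In THA it was 11.7 to 17.2 CPM in the 4 mid-aged animals and 3.91 to 13.4 CPM in the young ones, which overlapped through Rhesus 7. Scores on the leading axis in THA were 0.05 to 0.84 in the mid-aged animals and -1.04, -0.94, -0.87 and 0.68 in the young ones, where Rhesus 7 was again the highest. The part of that axis was not tested. *NGFR* was higher in females in HTHA (4.81 ± 1.73, FDR = 0.95), where Rhesus 11, a female, holds the library at 238 CPM.

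A list of further genes of the pathway was followed in the same 15 comparisons, 43 genes with a row of their own, of which 42 were tested. It holds the sortilin family and other co-receptors, enzymes that cleave the precursors, adaptors of the Trk kinases and partners of the low-affinity receptor. The share of the list called was close to that of all genes in most groups, such as 9.52% against 9.54% in AMY and 26.2% against 25.7% in CB, and the widest gap was in STR with 26.2% against 16.9%. Called genes were more often lower than higher than in the cortex in 14 of 15 groups and equal in HTHA, such as 0 higher and 4 lower in AMY, 6 and 14 in CC and 3 and 13 in PIT. Among all genes, too, more were called lower than higher in CC (3400 higher, 4031 lower), PIT (3601 and 3919), CB, GP, HIP, PON and THA. In AMY (847 and 758), MO (2664 and 2098), OB (2110 and 1672) and PA (928 and 573) all genes went the other way. The same held in SN (2426 and 2286), STR (1470 and 1377) and VTA (2483 and 2286). In HTHA, where the list was equal, more of all genes were called higher (1847 and 1283). The median log2FC of the list lay between -0.33 and 0.02, beside -0.03 to 0.03 for all genes.

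*PCSK1*, a convertase that cleaves peptide precursors, was lower than the cortex in 13 of 15 groups, with 307 ± 49.5 CPM in the cortex and 1.92 ± 1.64 CPM in CB (log2FC -7.23 ± 0.44), 87.8 ± 11.2 CPM in STR and 49.8 ± 13.6 CPM in HIP. *RTN4R*, the Nogo receptor and a partner of the low-affinity receptor, fell from 64.1 ± 7.21 CPM in the cortex to 2.10 ± 1.19 CPM in CC (-4.99 ± 0.26) and 4.54 ± 1.94 CPM in PIT (-3.80 ± 0.23). *LINGO1*, from the same receptor complex, was 270 ± 35.6 CPM in the cortex and 13.7 ± 5.39 CPM in PIT (-4.32 ± 0.18). These genes were lower in 8 of 8 animals.

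Of the sortilin family, *SORCS1* was lower in HIP (13.3 ± 2.47 against 105 ± 6.89 CPM in the cortex, log2FC -2.97 ± 0.18) and higher in CB (274 ± 50.8 CPM, 1.40 ± 0.17), *SORCS3* was lower in PON (-4.46 ± 0.20) and SN (-3.28 ± 0.19), and *SORL1* was lower in AMY (135 ± 10.1 against 558 ± 47.3 CPM, -2.05 ± 0.11). The Shc adaptor *SHC3* was lower in CB (-2.73 ± 0.13), THA (-2.58 ± 0.13) and MO (-2.34 ± 0.12). The docking protein gene *GAB1* was higher in CC (477 ± 64.2 against 42.7 ± 5.79 CPM, 3.51 ± 0.17), GP (2.38 ± 0.16), VTA (1.67 ± 0.16) and MO (1.65 ± 0.16), groups with medians of 47525 to 103219 CPM for the summed oligodendrocyte list. The part of oligodendrocytes in these values was not tested.

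The genes most like each member were sought among 13251 genes with a symbol, by Pearson r of mean log2(CPM + 1) over 51 sub-regions. They were *SLC25A23* (r = 0.94), *SNX32* and *RASGEF1A* for *NTRK3*, *TERF2* (0.93), *KIAA1549L* and *DOCK3* for *NTRK2*, and *TMT1A* (0.87), *DENND4C* and *PTK7* for *NGFR*. For *NTF3* they were *TANC1* (0.84), *SHISA6* and *MYRFL*, and for *BDNF* they were *GPR162* (0.83), *DAAM1* and *TMEM237*, so no gene followed the ligands as closely as some followed *NTRK2* and *NTRK3*. Spearman rho was lower than r for several of them, with 0.35 for *GPR162*, 0.26 for *SHISA6*, 0.49 for *MYRFL*, *DENND4C* and *PTK7* and 0.53 for *TANC1*. Between the members themselves, r over 51 sub-regions was 0.34 for *BDNF* with *NTRK2*, -0.04 for *NTF3* with *NTRK3* and 0.71 for *NTRK2* with *NTRK3*.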

How the data were processed

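Ribosomal RNA-depleted, strand-specific libraries were made from 51 dissected sub-regions of 8 animals. The authors deposited raw read counts for each gene, made with HISAT2 2.0.5 and HTSeq 0.6.1 on the Mmul 8.0.1 genome with Ensembl annotation; how strand and overlaps were treated in counting is not given in the sources used here, so antisense and overlapping genes cannot be told apart from the members. All 408 samples with counts were used, mapped by their labels; coordinates were not used here.

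Counts were summed within each animal for region groups and lobes and tested with edgeR 4.0.16 (filterByExpr, TMM, glmQLFTest, Benjamini-Hochberg over all genes tested), with the animal as a block since samples with the same number come from 1 brain. SE is the absolute log2FC divided by the square root of F. Each animal gives 1 sample per sub-region, so n is 8 animals. Alternatives were DESeq2 size factors, DESeq2 1.42.0, the detection rule of the study (a count above 1 in at least 3 samples), no block and each animal left out. Leaving out the HTHA library of Rhesus 6 or 11, the marker sums and the leading axis (numpy 2.4.6, mean count above 20) were added after seeing the data. The fits were tested on simulated data. The members, gene lists and comparisons were chosen with earlier results of these data known. Named genes were the members, *NTF4* and, for each region group, up to 2 pathway genes per direction (called, at least 1 CPM, same sign in 8 of 8 animals; a part of these is printed), and the 3 genes most like each member. Other named genes are markers or were chosen after their values were seen. Open chromatin samples (33) and midbrain samples (8) were not analysed here. CPM precision is limited by counts: 3 counts were taken as the floor.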

Additional observations from a re-analysis of the deposited data

Results flagged for a closer look

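For each member, a group of 8 values was looked at where 1 sample lay far from the rest by Dixon's criterion. Among 105 groups of a gene in a region, 13 were found. The criterion flags about 1 in 20 groups only where values are normally distributed. CPM are skewed and some lie near the floor, and all but 1 of the flagged samples were the highest of their group. The 13 can therefore not be read as an excess over chance. *NGFR* had the widest gap, 238 CPM in HTHA of Rhesus 11, beside 61 CPM in GP of Rhesus 6, 2.01 CPM in VTA of Rhesus 2 and a cortical mean of 0.873 CPM in Rhesus 8. The cerebellar cortex of Rhesus 4 was set apart in 3 genes, with 32.9 CPM of *NGFR*, 21.4 CPM of *NTF3* and, as the lowest sample, 1.32 CPM of *NTRK2*; its score on the leading axis, -3.88, was the lowest of all samples. In single striatal sub-regions, each against the same sub-region of the other animals, the high samples were 14.7 CPM of *BDNF* in PUT of Rhesus 3, 6.27 CPM of *BDNF* in ACb of Rhesus 10, 3.14 CPM of *NTF3* in ACb of Rhesus 2 and 16.3 CPM of *NTRK2* in PUT of Rhesus 7. *NTF3* also stood at 8.81 CPM in PA of Rhesus 11 and at 1.67 CPM in VTA of Rhesus 7.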

How the results depend on the processing

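Of 70 member calls, 57 held in every setting tried and 13 were lost in at least 1; of 74 values not called, 10 were called in an alternative, and no call changed sign. The animal pairs the samples. Without the replicate block the count of called member tests fell from 12 to 7 between lobes and from 1 to 0 in the cerebellum; it changed no other call among the region groups, hippocampus or striatum. Leaving out 1 animal gave 3 to 5 calls in the striatum (3 without Rhesus 4), 0 to 2 for age and 0 to 1 for sex (the highest in both without Rhesus 7), against 5, 0 and 0. For age the detection rule of the study and DESeq2 each called 1 test. These calls were all of *NTRK2*: higher in mid-aged animals in THA (log2FC 1.05 and 1.04, and 1.44 without Rhesus 7) and in PA (1.09 without Rhesus 7), and higher in females in PIT (2.46 without Rhesus 7). The cause of these changes was not tested. Calls of *NTF3* in the cortex, GP, OB and VTA, and of *NGFR* in CN, are limited by a few counts per library.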
